A study of Rattus norvegicus with 24 samples.

Results

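Pllp encodes plasmolipin, a small membrane protein that crosses the bilayer several times and belongs to the MARVEL-domain family. It is 1 gene of the 10392 that passed the detection filter in these left ventricles, and 1 probe of the array measured it. It was chosen by its own pattern over the 4 groups: lower after coronary ligation on chow, lower on saturated fat after sham surgery, and not lower still where both were combined. Those group differences, and their ranks among all genes, follow from that choice and are therefore given as a description with no test. The probe carried the older symbol Tm4sf11 and was matched to Pllp, on rat chromosome 19, through its RefSeq accession.

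Plasmolipin was first described in kidney and in myelin, where it sits in membrane domains rich in cholesterol and sphingolipid. MARVEL proteins share a bundle of membrane-spanning helices and are found at sites where membranes are sorted, fused or held together, such as myelin, tight junctions and synaptic vesicles. In the zebrafish gut, plasmolipin acts in endosomes with epsin-related and syntaxin proteins, where it promotes endocytosis and Notch signalling. Its role in heart muscle is not a textbook subject.

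The 24 animals were male Wistar rats of 300 to 350 g, 6 in each group and 1 array per animal. The sham chow group had a sham operation and normal rodent chow. The sham fat group had the sham operation and a high saturated fat chow with 60% of its calories from fat, the ligated chow group had the left main coronary artery tied and normal chow, and the ligated fat group had both the ligation and the fat chow. All were kept on a reversed light cycle and handled 3 to 6 hours into the dark phase, feeding began right after surgery, and neither the age of the rats nor the length of feeding is given in the sources used here. Ligation models heart failure after an infarct, and the labels do not say which region of the left ventricle was sampled.

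Each array detected 8884 to 10475 of 22517 probes, with precision set by the 6 rats in a group. The signal of undetected probes split the arrays into 12 with a high background (132.2 to 148.5 units) and 12 with a low one (77.1 to 87.5 units), a split read from the values alone. Among the high-background arrays were 5 of the ligated fat group, 3 of sham fat and 2 of each chow group, and 2156 genes (20.7%) differed between the sets in limma at an adjusted p under 0.05. On 3 arrays over 5% of genes lay more than 2 within-group SDs from the group mean: ligated fat animal 18 (15.8%), ligated chow animal 4 (8.9%) and ligated chow animal 21 (6.22%). The other 21 arrays had 0.568% to 3.57%. In 2 of these ligated animals, 21 and 18, the natriuretic peptide gene Nppa, which the ventricle expresses under wall stress, was at 12.14 and 12.49 (log2), within the sham range of 10.6 to 12.78, while the other 10 ligated animals had 13.77 to 15.27. Results that rest on these animals are given with and without them. None of the 14 cardiomyocyte markers that passed the filter, of 15 on the array, was called in any comparison of the 4 groups. At most 0.885% of all genes were called in any of these comparisons, so this is near that share and no result about the markers. Their summed level overlapped in all groups. Between the background sets, where 20.7% of all genes were called, Tnni3, Mb and Csrp3 were called.

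Pllp was detected on 24 of 24 arrays. The deposited signal was 4.57 times the array's background in the median sham chow animal, 3.33 times in sham fat, 3.09 times in ligated chow and 4.30 times in ligated fat. The ligated fat value comes from a group with 5 of its 6 animals on high-background arrays, so levels below are background-corrected, quantile normalized log2 intensities.

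In the sham chow group, Pllp was at 8.98 in animal 15, 9.09 in animal 40, 9.07 in animal 9, 9.26 in animal 7, 8.86 in animal 13 and 8.99 in animal 22. This was the highest and the tightest group, at 9.04 ± 0.13 (SD, n = 6). In the sham fat group, it was at 8.47 in animal 17, 8.25 in animal 35, 7.83 in animal 11, 8.24 in animal 20, 8.52 in animal 12 and 8.36 in animal 34. The highest of these lay below the lowest sham chow animal, and the group was at 8.28 ± 0.24 (SD, n = 6).

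In the ligated chow group, Pllp was at 8.32 in animal 38, 8.01 in animal 24, 7.77 in animal 23, 8.24 in animal 16, 8.60 in animal 21 and 7.96 in animal 4. All 6 again lay below every sham chow animal, and the group was at 8.15 ± 0.30 (SD, n = 6). In the ligated fat group, it was at 8.66 in animal 5, 8.01 in animal 28, 8.99 in animal 18, 8.33 in animal 25, 8.20 in animal 39 and 8.06 in animal 37. Animal 18 alone fell inside the sham chow range, the other 5 lay below it, and the group was at 8.38 ± 0.38 (SD, n = 6). Of the 18 animals that had been ligated, fed fat or both, 17 thus had less Pllp than any sham chow animal. With arrays scaled to the median of all probes instead, the count was 14 of 18, and sham fat animal 17, ligated chow animal 38 and ligated fat animals 5 and 18 lay within the sham chow range. In tissue RNA, fewer cells of a type that carries Pllp and less Pllp RNA per cell cannot be told apart.

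**Figure D1:**
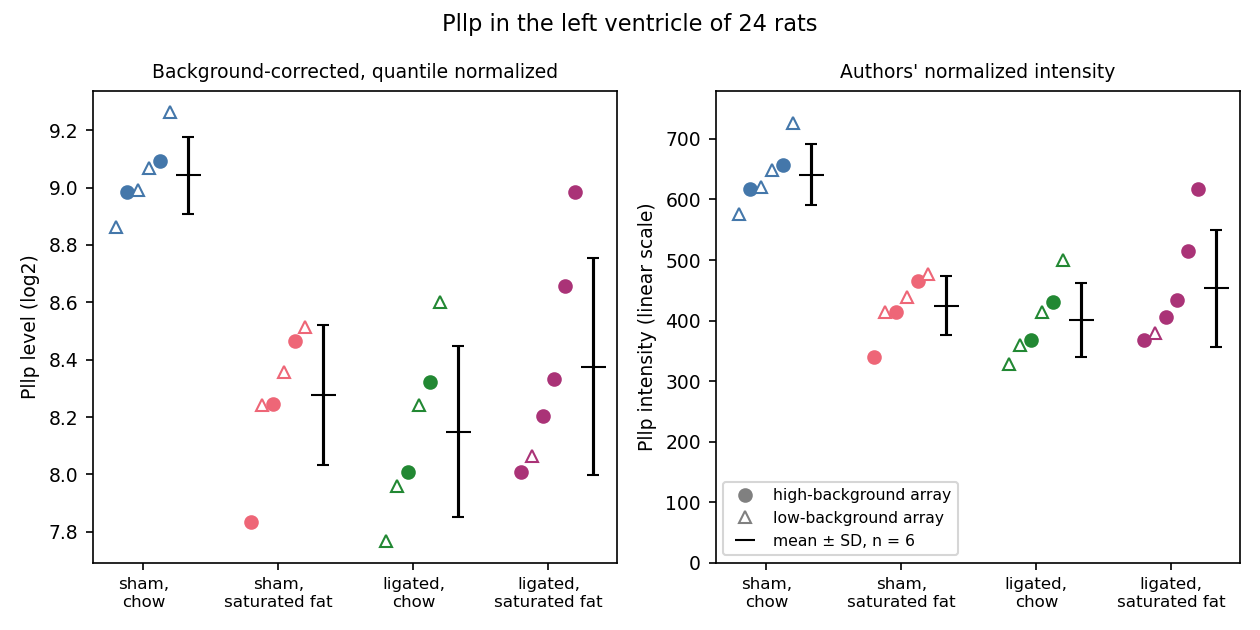
Pllp in each of the 24 rats by group, as the background-corrected log2 level (left) and as the authors' normalized intensity on a linear scale (right). Circles are high-background arrays, open triangles low-background arrays, and the black bar is the group mean ± SD (n = 6); the sham chow animals at 8.86 to 9.26 lie above 17 of the 18 other animals.

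From the highest group mean to the lowest the order was sham chow, ligated fat, sham fat and ligated chow. The last 3 ranges overlapped, and their means lay within the pooled within-group SD of 0.28. The authors' own normalized intensities, on a linear scale, gave the same order, with 640.8 ± 50.3 in sham chow, 453.3 ± 96.2 in ligated fat, 424.8 ± 49.1 in sham fat and 400.3 ± 61.1 in ligated chow (SD, n = 6 each). In that table, too, 17 of 18 animals lay below every sham chow animal.

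Ligation against sham on chow asks how the failing ventricle differs on an ordinary diet. Pllp was lower by 0.89 on the log2 scale (difference -0.89, SE 0.15), a change of -46.2% from sham. In this comparison 15 of the 10392 genes had a lower value, a rank that follows from how Pllp was chosen. Over all genes limma called 49 (0.472%), 37 higher and 12 lower, at a Benjamini-Hochberg adjusted p under 0.05. Without the 3 arrays that stood apart the difference was -0.96, and without animal 21 alone it was -0.98.

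Fat against chow after sham surgery asks what the diet does to an unligated heart. Here Pllp differed by -0.77 (SE 0.15), a change of -41.2% from sham chow, and 20 genes had a lower value. Few genes were called, 2 of 10392 (0.0192%), both higher on fat. The number of genes called lower both after ligation on chow and on fat in sham was 0 (0%), Pllp included, and these comparisons share the sham chow animals. At an unadjusted p under 0.05, limma counted 1081 genes in either direction after ligation on chow and 621 on fat in sham.

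Where the other factor was present, the Pllp differences lay nearer to 0, and their sign depended on the arrays used. In fat-fed rats, ligated minus sham was 0.10 (SE 0.15), or 7.06% higher, against 92 genes (0.885%) called for ligation on this diet. Without animal 18 it was -0.02. In ligated rats, fat minus chow was 0.23 (SE 0.15), or 16.9% higher, with 1 gene (0.00962%) called, and 0.10 without animal 18. On low-background arrays alone, with 1 ligated fat animal, these differences were -0.31 and -0.08, and with scaling to the median of all probes they were 0.21 (SE 0.21) and 0.46 (SE 0.21).

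The interaction, the amount by which ligation and fat together departed from the sum of their separate differences, was 0.99 (SE 0.22) for Pllp. Of all genes, 25 had a higher value, and the median gene had -0.01. The interaction called 0 genes (0%) in limma, with or without array weights, and 564 had an unadjusted p under 0.05. Leaving out animal 18 gave 0.87, leaving out animal 21 gave 1.08, and leaving out all 3 arrays that stood apart gave 0.93.

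The background split was not used in the rule that chose Pllp, so it could be tested, with group in the model. It is not balanced over the groups, since the high set holds 5 ligated fat animals and the low set 1. High minus low background arrays differed by 0.01 in Pllp (SE 0.12, limma adjusted p = 0.97). Scaling to the median of all probes changed this call, to 0.49 (limma adjusted p = 0.0016). In the high set, the group means were 9.04 in sham chow (2 animals), 8.18 in sham fat (3), 8.17 in ligated chow (2) and 8.44 in ligated fat (5). In the low set, they were 9.05 (4 animals), 8.37 (3), 8.14 (4) and 8.06 in the single ligated fat animal. Ligated minus sham on chow was therefore -0.87 and -0.90 within the high and low sets, and fat minus chow in sham was -0.86 and -0.67. The interaction was 1.13 in the high set and 0.60 in the low set, where it rests on animal 37 for the ligated fat group.

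**Figure D2:**
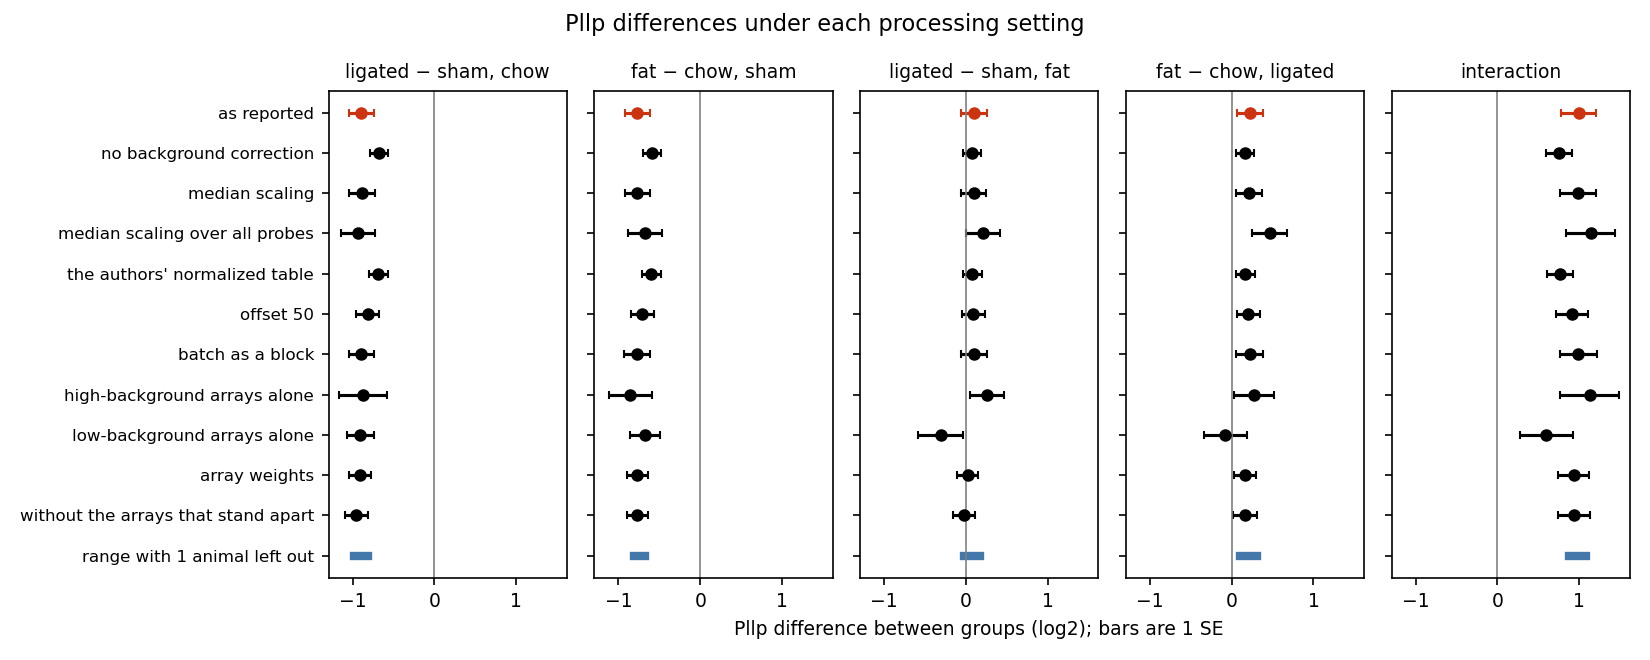
Pllp differences on the log2 scale for the 4 pairwise comparisons and the interaction under 11 processing settings, with the reported setting in red, bars of 1 SE, and the range with each animal left out in turn in blue. The difference after ligation on chow stayed between -0.96 and -0.68 and that of fat in sham between -0.86 and -0.59 over these settings.

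Genes were next ranked by how closely their level followed Pllp over the 24 arrays, among 6624 genes with an official symbol. The arrays share groups and background sets, and the correlation includes the group pattern by which Pllp was chosen, so these values describe likeness and carry no p. Across genes the median Pearson r was 0.009, and the central 95% of genes lay between -0.507 and 0.481. Only 1 gene exceeded 0.8.

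That gene was Syngr1, synaptogyrin 1, itself a MARVEL-domain protein of synaptic vesicle membranes, at r = 0.80 over 24 arrays (0.84 in the high set, 0.81 in the low set). Syngr1 was at 8.45 ± 0.18 in sham chow, 8.11 ± 0.18 in sham fat, 7.93 ± 0.27 in ligated chow and 7.97 ± 0.25 in ligated fat (SD, n = 6). Among the 18 animals outside sham chow, 12 lay below every sham chow animal. Its differences were smaller than those of Pllp, at -0.52 after ligation on chow (SE 0.13, limma adjusted p = 0.0693) and -0.34 for fat in sham, and neither passed the threshold. Taken as deviations from the 4 group means, which remove the group pattern, the correlation was 0.63, and 0.58 without animal 18. It was 0.43 without the 2 animals whose Syngr1 deviations lay farthest from the median.

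**Figure D3:**
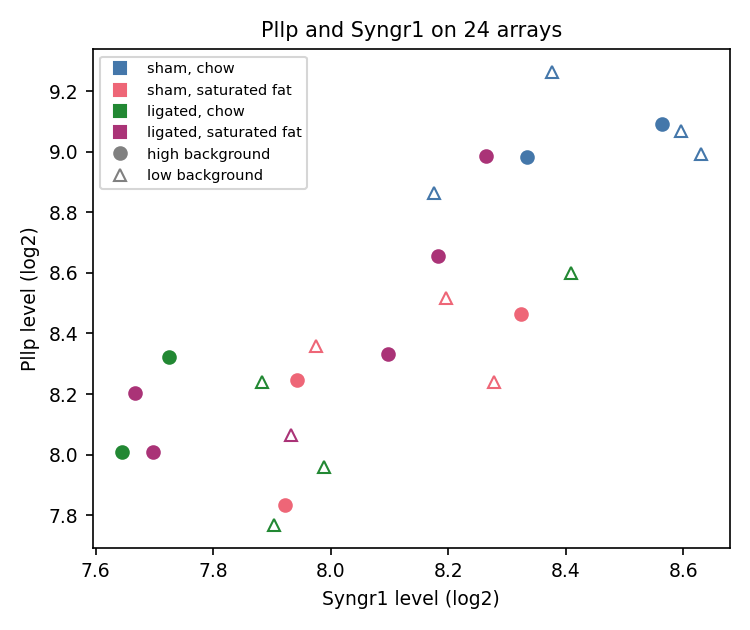
Pllp level against Syngr1 level (both log2) on the 24 arrays, coloured by group, with filled circles for high-background and open triangles for low-background arrays. Pearson r was 0.80, and the sham chow animals, at a Pllp level of 8.86 to 9.26, lie at the top with ligated fat animal 18.

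The next genes were largely metabolic. Ndufs7, a subunit of respiratory complex I, followed at r = 0.78, and Gamt, which makes creatine, at 0.73. Qdpr, which regenerates tetrahydrobiopterin, and Fxyd3, a regulator of the sodium pump, were both at 0.68. Aprt (adenine salvage) was at 0.67, and Hsd17b10 (a mitochondrial dehydrogenase) and Dgat1 (the last step of triglyceride synthesis) were both at 0.66. The same 8 genes led the ranking in the authors' normalized table. The ranking selected genes that share the Pllp pattern, so their own calls are no support for it: limma called Fxyd3 lower after ligation on chow (-1.20, adjusted p = 0.0033), and Dgat1 (-0.53, adjusted p = 0.0263). None of the 8 was called in the other 3 pairwise comparisons.

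At the opposite end stood Abca5, an ATP-binding cassette transporter of endosomes and lysosomes, Reck, a membrane-anchored inhibitor of matrix metalloproteinases, Ltbp4, which binds latent TGF-beta in elastic fibres, and Idh3b, a subunit of the citric acid cycle enzyme isocitrate dehydrogenase. All 4 had r = -0.71. Ltbp4 lay above every sham chow animal in all 18 others, in 17 with median scaling over the kept genes and in 9 with the median of all probes. It was at 13.2 ± 0.083 in sham chow against 13.51 ± 0.096, 13.68 ± 0.14 and 13.56 ± 0.14 in sham fat, ligated chow and ligated fat. These 4 were selected by the same ranking, so their own calls are no support for the Pllp pattern either. Ltbp4 was called after ligation on chow (0.48, limma adjusted p = 0.0043), as were Abca5 (0.64, adjusted p = 0.0406) and Reck (0.44, adjusted p = 0.0498), while Idh3b was not (0.40, adjusted p = 0.192). Abca5 was dim, at 5.80 in sham chow and detected on 15 of 24 arrays. Its r was -0.58 with median scaling over the kept genes. Within groups the likeness of Ltbp4 was weak, with r of deviations at -0.14.

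A separate ranking by deviations from the group means asked which genes rose and fell with Pllp among rats treated alike. It too describes likeness and carries no p. In it 17 genes exceeded 0.7, and the median r was 0.03. Rab11b, a GTPase of recycling endosomes, led at r = 0.81, followed by Tmbim6, an inhibitor of cell death in the endoplasmic reticulum, at 0.80. Cyth2, an exchange factor for ARF GTPases, and Decr1, which prepares unsaturated fatty acids for beta-oxidation, were both at 0.78, and Spag7 was at 0.77. None of these 5 was among the 8 most alike over all arrays. Over all 24 arrays Rab11b reached only 0.27. Without animal 18, the deviations of Rab11b correlated at 0.72, those of Tmbim6 at 0.70, Cyth2 at 0.77, Decr1 at 0.69 and Spag7 at 0.66. Without the 2 animals farthest from the median of each gene's deviations, Spag7 was at 0.55 and the others between 0.70 and 0.79.

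The relation of Pllp to stress, fat and clock genes within groups was tested for 6 genes with permutation tests on the deviations (two-sided, n = 24, adjusted over the 6). Nppa and Pllp deviations ran in opposite directions, with Pearson r = -0.595 (permutation p = 0.00716, adjusted p = 0.043) and Spearman rho = -0.48 (permutation p = 0.0259, adjusted p = 0.156). Animals 21 and 18 had the highest Pllp and the lowest Nppa of their groups. Without these 2, r was -0.175, so the relation rests on them. Within the high and low background sets r was -0.715 and -0.672, each with 12 animals, 1 of those 2 animals in each.

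**Figure D4:**
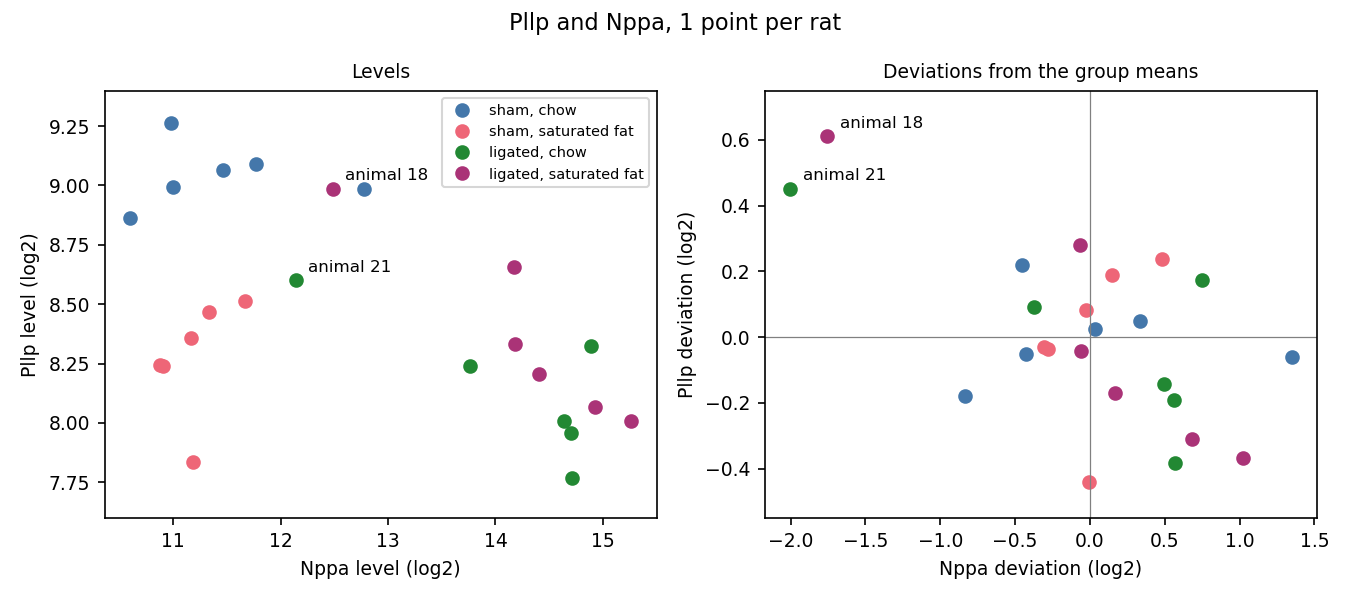
Pllp against Nppa in the 24 rats, as log2 levels (left) and as deviations from the group means (right), coloured by group with ligated animals 21 and 18 named. On the right these 2 stand at the upper left, and r falls from -0.595 to -0.175 without them.

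The other 5 relations did not pass the threshold. For Nppb, the second natriuretic peptide, r was -0.37 (permutation p = 0.0994, adjusted p = 0.249; rho -0.269, permutation p = 0.24; -0.305 without the 2 farthest animals). For the fat-responsive genes, Angptl4, an inhibitor of lipoprotein lipase, had r = -0.124 (permutation p = 0.615, adjusted p = 0.715; rho -0.0878, permutation p = 0.708) and Pdk4, a brake on pyruvate oxidation, 0.0908 (permutation p = 0.715, adjusted p = 0.715; rho 0.123, permutation p = 0.613). For the clock output genes, Dbp had r = 0.37 (permutation p = 0.128, adjusted p = 0.249; rho 0.317, permutation p = 0.169) and Nr1d1 0.306 (permutation p = 0.166, adjusted p = 0.249; rho 0.327, permutation p = 0.138). Without the 2 farthest animals, r was 0.0577 for Angptl4, -0.0599 for Pdk4, 0.0983 for Dbp and 0.51 for Nr1d1. Of the 12 clock genes that passed the filter, 0 were called in any comparison of the groups. At most 0.885% of all genes were called in any of these, so this is near that share and no result about the clock. The median of the 12 was 0.24 after ligation on chow and -0.20 after ligation on fat, against -0.001 and -0.015 for all genes. For the interaction it was -0.49 (range -1.52 to 0.89), with 9 estimates below 0 and 3 above, against -0.01 for all genes.

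Of 27 other MARVEL-domain genes, 18 were on the array and 8 passed the filter. None of the 8 was called in any of the 5 comparisons by limma, where the share of all genes called was 0.472% and 0.885% for ligation on chow and on fat, 0.0192% and 0.00962% for fat in sham and in ligated rats, and 0% for the interaction. With 8 genes, 0 calls is near those shares and is no result about the family. Besides Syngr1, the member that differed most was Mal, a raft protein of myelin and epithelia, at 0.54 after ligation on chow (SE 0.16, adjusted p = 0.135) and r = -0.535 with Pllp, the direction opposite to Pllp. Plp2, Cmtm3, Cmtm5, Cmtm8, Myadm and Marveld1 lay between -0.10 and 0.21 after ligation on chow and between -0.25 and 0.28 for fat in sham. The family median was 0.12 after ligation on chow and 0.08 for fat in sham, where the medians of all genes were -0.001 and 0.002. The tight junction gene Ocln and the synaptic vesicle gene Syp were among 8 members detected on no array.

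The genes on either side of Pllp on chromosome 19 are given for comparison. Pllp was chosen for being low after ligation on chow and on fat in sham. Values nearer to 0 in other genes there are therefore no result about the locus. Of its 20 nearest annotated neighbours, 5 were on the array and 4 passed the filter. Of these 4, 0 were called in the 5 comparisons, where at most 0.885% of all genes were called. With so few genes this is no result about them either. Ciapin1 (anti-apoptotic iron-sulfur protein) was at -0.23 after ligation on chow and -0.04 for fat in sham, the chemokines Ccl17 and Cx3cl1 at -0.04 and 0.10 after ligation and -0.07 and -0.49 for fat, and Cpne2 at -0.12 and -0.05.

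**Figure D5:**
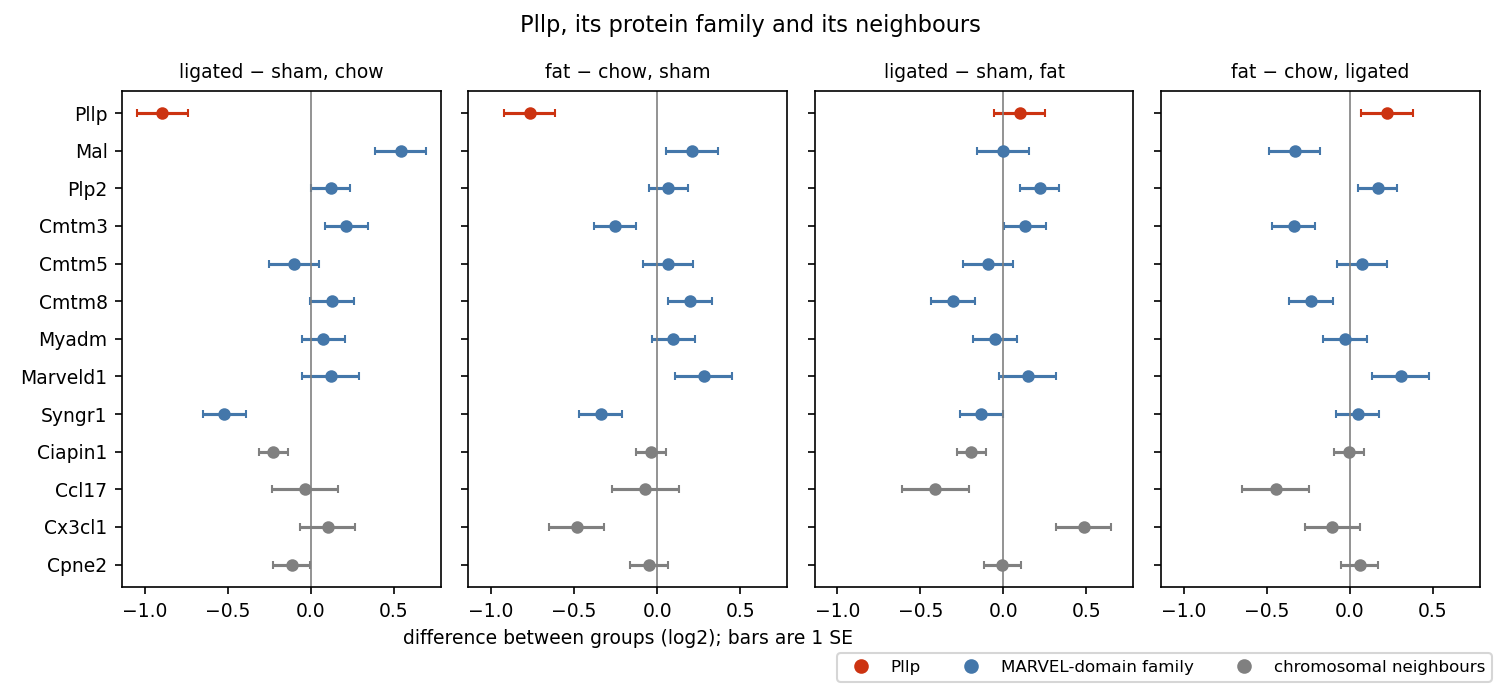
Differences on the log2 scale, with bars of 1 SE, of Pllp (red), the 8 other MARVEL-domain genes that passed the filter (blue) and 4 chromosomal neighbours (grey) in the 4 pairwise comparisons. Pllp stands at -0.89 and -0.77 in the first 2 panels, with Syngr1 at -0.52 and -0.34 on the same side and Mal at 0.54 and 0.21 on the other.

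Plasmolipin is a protein of myelin, so markers of Schwann cells and myelin are given beside it. Of 19 on the array, 13 passed the filter; the neuregulin receptor gene Erbb3 was detected on no array, and Mbp on 4. The summed level of the 13 ranged over 5661 to 7743 in sham chow, 5530 to 7915 in sham fat, 6892 to 9137 in ligated chow and 6725 to 9752 in ligated fat, on the linear scale. Called higher after ligation on chow were Pmp22 (0.53, limma adjusted p = 0.0418, r = -0.619 with Pllp) and Cnp (0.48, adjusted p = 0.0359), and Cnp also after ligation on fat (0.49, adjusted p = 0.0219). These were 2 of 13 genes on chow and 1 of 13 on fat, where 0.472% and 0.885% of all genes were called. After ligation on chow, 9 estimates lay above 0 and 4 below (median 0.09). After ligation on fat, 10 lay above 0 and 3 below (median 0.14). Between the background sets, where 20.7% of all genes were called, Sox10, Cldn19 and L1cam were called higher in the high set. The part of Schwann cells in the Pllp differences was not tested.

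In the membrane and sorting pathways linked to plasmolipin limma called 0 genes in the 5 comparisons, which is near the array-wide share of at most 0.885% and says nothing particular about them. The lists held 13 caveola and raft scaffold genes, 24 genes of Notch signalling and endosomal sorting, and 16 genes of sphingolipid synthesis and turnover. Their medians after ligation on chow were -0.01, 0.05 and 0.06, and for fat in sham 0.07, -0.02 and 0.01. In the caveola list, Pacsin2, which bends membranes at caveolae, was at -0.37 and -0.28 and had r = 0.639 with Pllp. Among the sorting genes, Clint1, the epsin-related partner known from zebrafish, was detected on no array, and Stx7, the syntaxin partner, was at -0.17 and -0.06. Both were picked from their lists after their values were seen, as was Pacsin2 for its r.

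Markers of the other cell types of the ventricle are given for comparison, and their part in the Pllp values was not tested. After ligation on fat, limma called the fibroblast genes Pi16 and Cd248 (2 of 13) and the macrophage complement genes C1qa, C1qb and C1qc (3 of 10), all higher, where 0.885% of all genes were called. After ligation on chow 0 of these 23 were called, which is near the 0.472% of all genes and no result about them. There 13 of 13 fibroblast genes (median 0.29) and 7 of 10 macrophage genes (median 0.28) had estimates above 0. For fat in sham, 9 of 13 fibroblast genes (median -0.195) and 7 of 10 macrophage genes (median -0.137) had estimates below 0. Endothelial genes gave 0 calls of 8 in the 5 comparisons of the groups, and Cdh5, the cadherin of endothelial junctions, was detected on no array. Calls there were also 0 for 7 smooth muscle and pericyte, 7 lymphocyte, 5 adipocyte, 5 erythroid and 4 mesothelial and epithelial genes. At most 0.885% of all genes were called, so for so few genes this is no result about these cell types. After ligation on chow, estimates were above 0 for 7 of 8 endothelial genes (median 0.15). They were below 0 for 5 of 5 adipocyte genes (median -0.11). In ligated rats, 5 of 5 erythroid genes had estimates below 0 for fat (median -0.16). Of 3 atrial genes, Nppa was called higher after ligation on both diets, where 0.472% and 0.885% of all genes were called.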

How the data were processed

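RNA from the left ventricle of 24 rats was hybridised to Illumina rat arrays of 50-base probes with a Cy3 label, per the labels. The deposited table holds an intensity per probe on a linear scale, not normalized, from BeadStudio 3 (per the submitters' processing notes), with a detection p-value per the file headers. The authors also deposited normalized intensity values, by a method not given in the sources used here. Deposited signals were corrected with neqc in limma 3.58.1 (R 4.3.3; negative controls inferred from the detection p-values, offset 16), quantile normalized between arrays and expressed as log2. The filter (detection p under 0.05, 6 arrays or more) kept 10540 of 22517 probes. The probe with the highest mean signal stood for a gene, which left 10392 genes, 6625 with an official symbol in a RefSeq table. limma was fitted to 4 group means (20 residual degrees of freedom), and a gene was called at an adjusted p under 0.05. Permutation tests of 6 within-group relations drew 100000 resamples (20000 with an animal left out).

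Pllp and the gene lists were chosen with earlier results of these data known. Genes were named by rule: the 8 most and 4 least like Pllp over the arrays, the 5 most like it within groups, the MARVEL-domain genes and neighbours that passed the filter, called members and the 2 smallest p-values of the other lists, and the 6 genes of the relations; not all of these are described, and single-gene results of some list members are not reported here. On simulated data for ligation on chow (10392 genes), 48% of 100 genes changed by 0.5 and 96% of 100 changed by 1 were recovered. Alternatives covered background correction, normalization, offset, filter, array weights, the background split and each animal left out.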

Additional observations from a re-analysis of the deposited data

Results flagged for a closer look

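Among 96 groups of 6 animals examined for the genes named with Pllp, 8 held an animal whose gap to the nearest other exceeded 0.625 of the group's range (Dixon's critical value), where chance flags about 1 in 20 groups. Pllp itself was not among them. Ligated fat animal 18 was apart in 3 genes: Hsd17b10 at 11.967 against 11.184 to 11.425 in the other 5 animals, Reck at 9.5413 against 10.08 to 10.291, and Spag7 at 9.0816 against 8.0567 to 8.1644 (log2). Ligated chow animal 21 had Nppb at 13.729 against 14.359 to 14.653, and ligated chow animal 23 had Ndufs7 at 12.842 against 12.974 to 12.996. Sham fat animal 11, which had the lowest Pllp of its group, had Qdpr at 8.1744 against 8.4006 to 8.497, and sham fat animal 20 had Angptl4 at 7.5176 against 8.5266 to 8.9866. Sham chow animal 7, with the highest Pllp of all animals, had Tmbim6 at 10.384 against 9.6931 to 9.8456.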

How the results depend on the processing

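The Pllp differences after ligation on chow and on fat in sham kept their sign under every alternative run, with values of -0.98 to -0.82 and -0.81 to -0.68 with each animal left out, and -0.69 and -0.60 in the authors' table. The interaction was 0.87 to 1.08 with each animal left out and 0.60 on low-background arrays alone. There ligated minus sham on fat was -0.31 and fat minus chow in ligated -0.077, both resting on 1 ligated fat animal. With each animal left out, these 2 ranged over -0.02 to 0.17 and 0.10 to 0.32. Scaling to the median of all probes, an alternative added after seeing the data like the one without the arrays that stand apart, rests on dim probes since at most 10475 of 22517 were detected on an array. It gave a background difference in Pllp of 0.49 (limma adjusted p = 0.0016) and shifted the median gene by 0.16 in fat minus chow of ligated rats. That background difference was -0.00465 with array weights and -0.0636 to 0.066 with each animal left out. The Nppa relation (r of deviations) was -0.716 and -0.672 in the high and low sets alone (permutation adjusted p = 0.175 and 0.724), -0.167 without the arrays that stand apart and 0.069 with the median of all probes. It ranged from -0.663 to -0.438 with each animal left out, and its adjusted p lost the threshold for 13 of 24. Angptl4 had 0.038 in the high set, 0.053 without the arrays that stand apart, 0.407 with the median of all probes, and -0.227 to 0.066 with each animal left out. Nppb had 0.225 with the median of all probes and Pdk4 -0.034 to 0.266 with each animal left out. The causes were not tested. Genes called over the array moved more: 49 after ligation on chow became 120 with array weights, 118 without the arrays that stand apart, 0 with the median of all probes, 3 and 0 within the high and low sets, and 24 to 103 with each animal left out, the most without animal 21. For ligation on fat, 92 became 308, 326, 10, 9 and 4, with 57 under the background split as a block, 58 with no filter, and 42 to 182 with each animal left out, the most without animal 18. For fat in sham, 2 became 4 with weights, 7 without the arrays that stand apart, 1 with the split as a block, with median scaling of kept genes or with no filter, 0 in each set alone, and 1 to 5 with each animal left out. For fat in ligated rats, 1 became 3 with weights, 0 without the arrays that stand apart, with the block, in the high set or with the median of all probes, and 0 to 7 with each animal left out. No paired analysis was possible because the groups share no animal numbers. Signal sets a limit: Pllp lay at 2.44 to 7.05 times the background, and the size of its differences shrank without background correction (-0.68 and -0.59).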
